A study of Mus musculus with 9 samples.

Results

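Mitosis and G2/M genes encode the proteins that carry a cell from the end of DNA replication through chromosome segregation and cytokinesis. The 56 genes described here were listed by symbol as mitotic kinases and cyclins, spindle checkpoint, centromere and kinetochore proteins, kinesins, spindle and cytokinesis proteins, and condensin and chromosome proteins. All 56 were found among the 35275 gene identifiers of the count table, and all 56 had enough counts to be tested in every comparison. They were ordered by role into 7 lists.

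Entry into mitosis is driven by the kinase CDK1 bound to its cyclins, together with Polo and Aurora kinases that mature the centrosomes and build the spindle. The spindle checkpoint holds the anaphase-promoting complex (APC/C), a ubiquitin ligase, until the kinetochores are attached, after which cyclin B and securin are destroyed and the chromatids part. Transcripts of these genes accumulate in G2 and M under FOXM1, B-MYB and the MuvB core, which reads a promoter element called CHR, often beside CCAAT boxes bound by NF-Y, and committed erythroid progenitors are among the rapidly dividing cells of the marrow.

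The transcripts of megakaryocyte-erythrocyte progenitors (MEPs) from mouse bone marrow, gated as Lin-ckit+CD34-FcgammaRII/IIIlo, were counted by bulk RNA-seq in 9 libraries of 25000 sorted cells per condition. MEPs were split by how strongly they bound HS3A8, a single-chain antibody fragment (scFv) against a sulfated pattern of heparan sulfate, into HS3A8-high (n = 3) and HS3A8-low (n = 3) fractions, and MEPs stained with MPB49, an scFv with no affinity for heparan sulfate, were mock-sorted as the control (n = 3). The methods of the study give age-matched and sex-matched wild-type C57Bl/6 mice, and no group carried a transgene or a drug. The labels do not say whether libraries of the same replicate number came from the same mouse.

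Library totals ran from 11781637 to 15850037 counts, so that a count of 0 allows up to 0.189 to 0.255 CPM (counts scaled to a common library size), and the lowest value of any of the 56 genes in any library was 18.8 CPM. Levels below are CPM scaled by TMM over the 9 libraries, and fold changes are log2 values of the edgeR quasi-likelihood test with Benjamini-Hochberg adjustment over all genes, called at an adjusted p under 0.05. MPB49 control replicate 1 stood apart, with 0.547% of its counts from mitochondrial genes against 0.147% to 0.327% in the other 8 libraries. The replicate 3 libraries of both HS3A8 fractions, but not of the control, held more granulocyte and monocyte RNA. The summed level of 16 markers was 1628 CPM in HS3A8-high and 3801 CPM in HS3A8-low against 9.41 to 258 CPM in the other 7 libraries.

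The first comparison asked how MEPs with high and low HS3A8 binding differ. Transcripts of 55 of the 56 genes were more abundant in HS3A8-high than in HS3A8-low MEPs, by modest amounts: the median log2 fold change was 0.36 (1.29-fold), with a range of -0.57 to 0.70, against a median of -0.03 over all 11791 genes tested. No gene changed by 2-fold. Of the 56 genes, 13 (23.2%) were called higher and 0 lower, where 0.611% of all genes tested were called higher and 3.21% lower, and 36 had an unadjusted p under 0.05, which 19.8% of all genes tested had. The called genes were Ccnb1, Plk1, Nek2, Bub1b, Cdc20, Ube2c, Kif18b, Kif22, Kif2c, Hmmr, Ckap2l, Ncapg and Ncaph. The 56 genes were listed with earlier results of these data known, those of Ube2c, Plk1 and Kif18b among them. The contrast with all genes is thus a description and not an independent test. In sorted bulk samples, fewer cells holding a transcript and less of it per cell cannot be told apart.

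Fraction libraries that carry the same replicate number deviated together, so each pair was also compared. HS3A8-high exceeded HS3A8-low in 55 of 56 genes in pair 1, in 55 in pair 2 and in 44 in pair 3, with median log2 CPM differences of 0.51, 0.42 and 0.28. With the replicate number as a block, 30 of the 56 genes (53.6%) were called higher, all 13 named above among them, where 3.32% of all genes tested were called higher, and 27 were called higher once transcript length and GC content were also corrected for, in a fit that called 6.22% of all genes higher. In 37 genes (66.1%) every HS3A8-high library lay above every HS3A8-low library, against 14.1% of all genes tested. In Cdc25b every HS3A8-high library lay below every HS3A8-low library. The share of all genes that lay below is not given here, so nothing is read from that count.

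**Figure D1:**
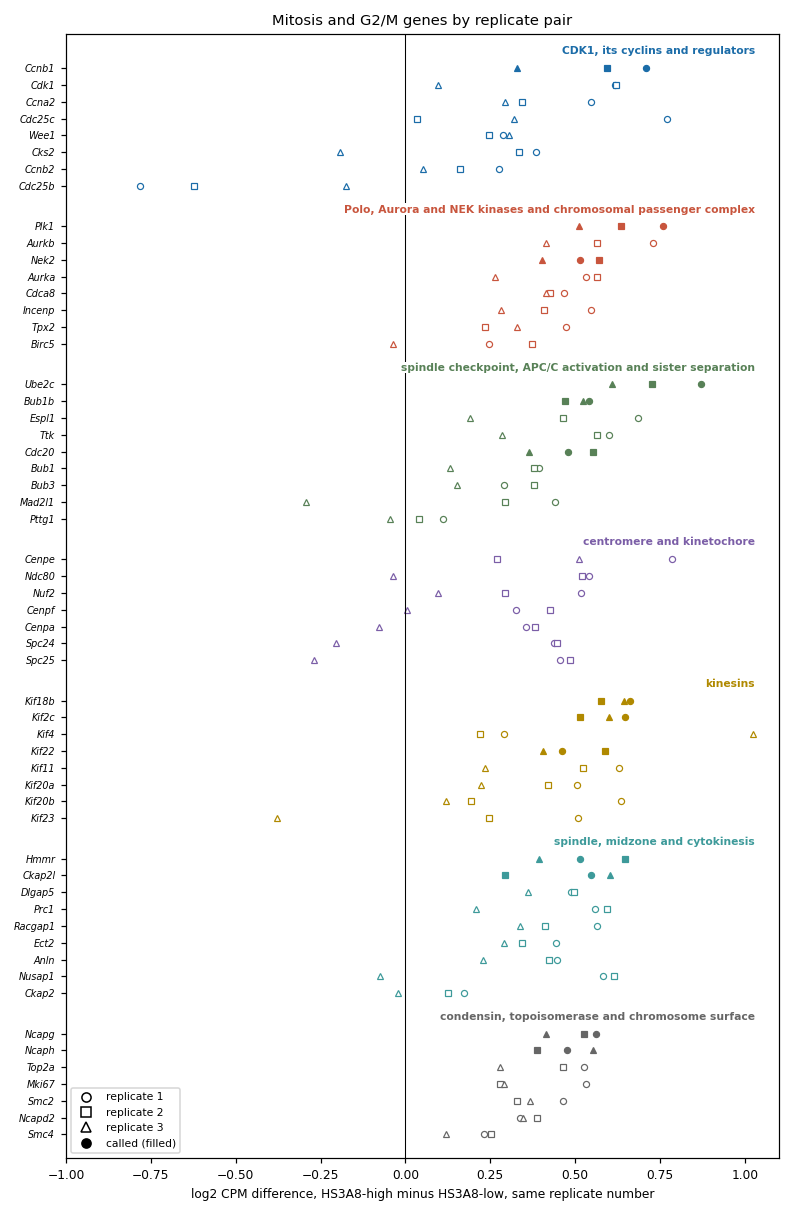
Difference in log2 CPM between the HS3A8-high and the HS3A8-low library of the same replicate number for each of the 56 genes, grouped by role, with circles, squares and triangles for replicates 1, 2 and 3 and filled symbols for the 13 genes called higher. Nearly all symbols lie right of 0 except those of Cdc25b, and the symbols left of 0 for 11 other genes are all of replicate 3.

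The number of calls rested on few libraries, among the 56 genes and among all genes. It was 0 when replicate 1 or 2 of either fraction was left out, 1 (Ube2c) when the omitted library was replicate 3 of HS3A8-high and 9 when it was replicate 3 of HS3A8-low, and 0 to 30 of all genes tested (0% to 0.247%) were called higher in these fits. Of the 56 genes, 30 to 48 had an unadjusted p under 0.05 in these fits, against 14.4% to 21.2% of all genes, and 52 to 55 had a fold change above 0. With all 9 libraries in 1 fit, 3 genes were called higher (Ccnb1, Ube2c and Kif2c), where 0.0661% of all genes were. In an alternative chosen after seeing the data, leaving out replicate 3 of both fractions, 9 genes were called higher, where 0.277% of all genes were, and the median log2 fold change was 0.44. With the block added, 50 were called higher and 1 lower, where 14% of all genes were called higher and 16% lower.

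The summed level of the 56 genes was 9806, 9567 and 9497 CPM in HS3A8-high replicates 1 to 3, and 6931, 7083 and 8056 CPM in HS3A8-low. The MPB49 control libraries held 8872, 8599 and 8908 CPM. The fractions did not overlap, and the 3 control libraries lay between them, as a mock-sorted total largely must. For control replicate 1 this place depended on the TMM scaling. As a share of all counts its sum was 0.766%, within the 0.744% to 0.812% of HS3A8-low. It was also the lowest control in 35 of the 56 genes. The means were 9624 ± 162 CPM in HS3A8-high, 8793 ± 169 CPM in the control and 7357 ± 610 CPM in HS3A8-low (SD, n = 3), a 1.31-fold difference between the fractions. HS3A8-low replicate 3 was the highest HS3A8-low library in 37 of the 56 genes.

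Other transcripts of the sorted cells moved beside these sums. The summed level of 16 erythroid markers, none at 0 in any library, was 17621 to 18460 CPM in HS3A8-high, 16414 to 17252 CPM in the control and 13630 to 15064 CPM in HS3A8-low. The sum weighs the most abundant markers most. Between the fractions 11 of the 16 had a positive log2 fold change and the rest a negative one (range -0.48 to 0.41). Of the 16, 1 (Car1) was called higher, where 0.611% of all genes tested were. The ratio of the mitotic sum to the erythroid sum was 0.557, 0.518 and 0.533 for HS3A8-high libraries and 0.509, 0.470 and 0.549 for HS3A8-low ones, so that the fractions overlapped on this ratio. Megakaryocyte markers (13, of which 5 were at 0 in some library) summed to 81.7 to 120 CPM in HS3A8-high, 189 to 310 CPM in the control and 237 to 450 CPM in HS3A8-low. Stem and multipotent progenitor markers (12, with 3 at 0) summed to 91.1 to 119, 195 to 228 and 278 to 320 CPM in the same order, and T and NK cell markers (8, with 6 at 0) to 3.91 to 31.6, 41.4 to 108 and 138 to 161 CPM. HS3A8-high was thus below HS3A8-low in each of these lists. B cell markers (8, with 6 at 0) summed to 1.35 to 5.23, 4.15 to 10.4 and 10.1 to 13.6 CPM, basophil and mast cell markers (8, with 6 at 0) to 1.26 to 68.1, 8.36 to 26.2 and 21.9 to 143 CPM, and granulocyte and monocyte markers (16, with 6 at 0) to 67.7 to 202 CPM in the control. The defining markers at 0 in some library included Gp6 and Ppbp of megakaryocytes, Ly6a and Procr of stem cells, Cd3e of T cells, Mcpt8 of basophils and Camp of granulocytes. The part of the cell types in the mitotic result was not tested.

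**Figure D2:**
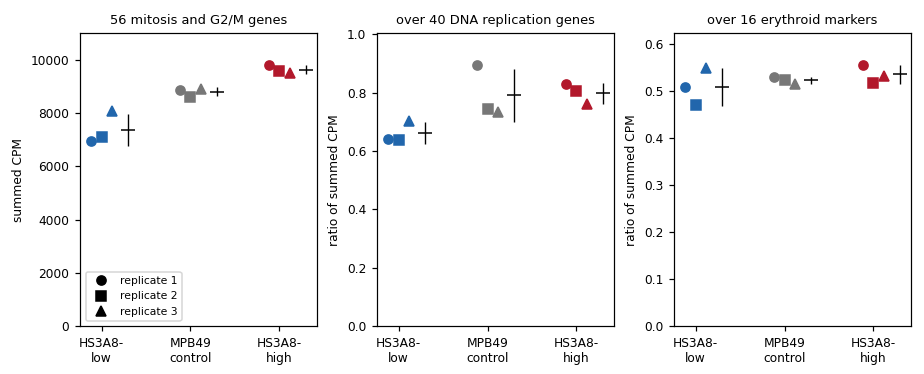
Summed CPM of the 56 genes (left), and its ratio to the summed CPM of 40 DNA replication genes (middle) and of 16 erythroid markers (right), for each library, with the mean and SD of each group (n = 3) as bars. HS3A8-high libraries lie above HS3A8-low libraries in the left and middle panels, and the fractions overlap in the right panel.

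Promoters of the 56 genes were examined as a description. RefSeq windows from 250 bases before to 50 bases after the transcription start, on GRCm38.p6, were at hand for 46 of the 56 genes, 13 of 13 called genes among them. The 6-base core of the CHR, TTTGAA, was sought on both strands, as were its variant TTCGAA and the CCAAT box, and none of these runs contains another. TTTGAA was present in 34 of 46 genes (73.9%) against 20.2% of all 27025 genes with a window. CCAAT was present in 36 (78.3%) against 41.1%, and both in 30 (65.2%) against 7.97%. TTCGAA was rarer in both sets, in 4 (8.70%) against 1.80%. TTTGAA was found in 21 of the 24 genes with a window that were called with the block and in 13 of the 22 that were not. Without the block, 10 of the 13 called genes (76.9%) held it, against 73.9% of the 46. Of 42 other mitotic genes with a window 59.5% held TTTGAA, compared with 12.1% of 33 DNA replication genes, 66.7% of which held CCAAT. A match is a run of letters and not a measured binding site. Whether these runs have a part in the difference between the fractions was not tested.

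The stretches below show the start regions of the 6 called genes with the smallest adjusted p, from 120 bases before to 30 bases after the start, 5′ to 3′ along the gene, with CCAAT and TTTGAA in capitals and their reverse complements written ATTGG and TTCAAA. The stretches lie at chr2:164769809-164769958 (Ube2c, plus strand), chr7:122159315-122159464 (Plk1, plus strand), chr4:117178743-117178892 (Kif2c, minus strand), chr2:127133925-127134074 (Ncaph, minus strand), chr11:102925095-102925244 (Kif18b, minus strand) and chr7:127042391-127042540 (Kif22, minus strand).
Ube2c: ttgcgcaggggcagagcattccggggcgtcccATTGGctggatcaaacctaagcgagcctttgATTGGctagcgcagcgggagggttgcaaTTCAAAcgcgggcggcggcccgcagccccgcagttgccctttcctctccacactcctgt
Plk1: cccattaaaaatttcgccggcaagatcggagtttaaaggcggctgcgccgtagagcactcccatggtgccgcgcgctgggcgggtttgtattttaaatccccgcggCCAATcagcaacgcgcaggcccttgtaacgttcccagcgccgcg
Kif2c: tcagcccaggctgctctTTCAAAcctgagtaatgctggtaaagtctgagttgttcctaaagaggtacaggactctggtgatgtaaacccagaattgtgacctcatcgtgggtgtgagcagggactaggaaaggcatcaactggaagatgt
Ncaph: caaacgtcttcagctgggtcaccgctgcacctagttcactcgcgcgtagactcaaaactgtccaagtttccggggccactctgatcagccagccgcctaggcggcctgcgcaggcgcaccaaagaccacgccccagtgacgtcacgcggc
Kif18b: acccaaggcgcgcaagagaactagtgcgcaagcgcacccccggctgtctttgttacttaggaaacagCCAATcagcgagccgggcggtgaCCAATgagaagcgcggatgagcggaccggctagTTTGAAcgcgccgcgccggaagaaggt
Kif22: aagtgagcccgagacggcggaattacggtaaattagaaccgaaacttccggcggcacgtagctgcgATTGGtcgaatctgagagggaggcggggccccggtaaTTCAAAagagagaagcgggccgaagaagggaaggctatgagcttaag
Ube2c, Kif18b and Kif22 showed the tandem layout, with CCAAT boxes that began 30 to 88 bases before the start in the printed stretches and TTTGAA at 29 bases before, 4 bases after and 17 bases before it. In Plk1 the CCAAT box lay 14 bases before the start and TTTGAA from 31 to 36 bases after it, outside the printed stretch. Kif2c held TTTGAA 103 bases before the start that RefSeq gives, which lies inside the span of the gene in GENCODE, and Ncaph held none of these letters in the window.

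CDK1, its cyclins and their regulators (8 genes) gave 1 call without the block and 2 with it (Ccnb1 and Ccna2). For this and the role lists below, the shares of all genes called higher were 0.611% without the block and 3.32% with it. Ccnb1, which encodes cyclin B1, the activator of CDK1 at mitotic entry (chr13:100778650-100786570), stood at 496, 472 and 464 CPM in HS3A8-high and at 304, 312 and 370 CPM in HS3A8-low. The control libraries gave 428, 404 and 396 CPM. Every HS3A8-high library exceeded every control library, and every control library exceeded every HS3A8-low library. The log2 fold change between the fractions was 0.51 ± 0.09 (SE, edgeR adjusted p = 0.0363). Cdk1 itself was at 216, 223 and 211 CPM in HS3A8-high and at 140, 145 and 197 CPM in HS3A8-low, a log2 difference of 0.40 ± 0.14 (SE) that did not pass the test (edgeR adjusted p = 0.162). Without HS3A8-low replicate 3, its adjusted p was 0.0244, the lowest in a range up to 0.363 over the libraries left out in turn.

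Cdc25b was the exception in direction. It encodes a phosphatase that activates CDK1 at the centrosomes, and its level was 19.5, 20.9 and 23.3 CPM in HS3A8-high, 34.0, 32.5 and 26.3 CPM in HS3A8-low and 18.8, 28.1 and 24.6 CPM in the control. All HS3A8-high libraries lay below all HS3A8-low libraries. The log2 fold change was -0.57 ± 0.16 (SE, edgeR adjusted p = 0.104) and -0.48 to -0.67 with each library left out. DESeq2 and limma-voom with quality weights called it lower, and its adjusted p ranged from 0.00144 to 0.306 over all alternatives run. Its relative Cdc25c had a log2 fold change of 0.35 (edgeR adjusted p = 0.379), and Wee1, the kinase that holds CDK1 inactive, one of 0.26 (edgeR adjusted p = 0.317). Cks2, a small CDK-binding subunit, had the highest level per kilobase of exon of the 56 genes, at 503 CPM per kilobase over the 9 libraries, and Cenpf the lowest at 2.15.

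Of the Polo, Aurora and NEK kinases and the chromosomal passenger complex (8 genes), 2 were called without the block and 7 with it, with Birc5 the exception. Plk1, the Polo kinase of mitotic entry and centrosome maturation, was at 270, 268 and 279 CPM in HS3A8-high and at 159, 172 and 196 CPM in HS3A8-low. Its control values were 126, 221 and 234 CPM. The fractions were separated by more than the spread within either, and only control replicate 1 fell below the HS3A8-low libraries. The log2 fold change was 0.61 ± 0.09 (SE, edgeR adjusted p = 0.0257). Nek2, a centrosome kinase that parts the centrosomes before the spindle forms (chr1:191821444-191833050), was at 166, 157 and 144 CPM in HS3A8-high and at 116, 106 and 109 CPM in HS3A8-low (log2 fold change 0.47 ± 0.09 SE, edgeR adjusted p = 0.0452).

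The chromosomal passenger complex joins Aurora B to INCENP, survivin and borealin at the inner centromere. Aurkb, its kinase, was at 224, 235 and 246 CPM in HS3A8-high and at 135, 159 and 185 CPM in HS3A8-low. Its log2 fold change of 0.54 ± 0.12 (SE) missed the threshold (edgeR adjusted p = 0.0603). Incenp and Cdca8, for INCENP and borealin, had log2 fold changes of 0.39 and 0.41 and were called with the block. Birc5, for survivin, was at 181, 222 and 212 CPM in HS3A8-high and 152, 171 and 217 CPM in HS3A8-low. Its fractions overlapped through replicate 3, with a log2 fold change of 0.16 (edgeR adjusted p = 0.607). Aurka and its spindle activator Tpx2 had log2 fold changes of 0.42 and 0.32, and both were called with the block.

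The spindle checkpoint, APC/C activation and sister separation list (9 genes) held the largest change. Ube2c, the E2 enzyme that starts ubiquitin chains for the APC/C, was at 274, 284 and 293 CPM in HS3A8-high and at 149, 172 and 192 CPM in HS3A8-low. Control libraries stood at 176, 228 and 234 CPM. The HS3A8-high values were tightly grouped above all other libraries, and the log2 fold change was 0.70 ± 0.10 (SE, 1.63-fold, edgeR adjusted p = 0.0253), with 0.64 to 0.80 over the libraries left out in turn. Ube2c shares 22.8% of its exon bases with other genes, and how the counting treated strand is not given in the sources used here.

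Cdc20, the mitotic activator of the APC/C (chr4:118432901-118437352), was at 313, 350 and 323 CPM in HS3A8-high and at 224, 239 and 250 CPM in HS3A8-low (log2 fold change 0.44 ± 0.08 SE, edgeR adjusted p = 0.0363). Bub1b, the checkpoint protein BUBR1 that holds CDC20 in check (chr2:118598211-118641591), was at 296, 261 and 267 CPM in HS3A8-high and at 204, 188 and 185 CPM in HS3A8-low (log2 fold change 0.49 ± 0.09 SE, edgeR adjusted p = 0.0363). Both the activator and this inhibitor were thus higher in every HS3A8-high library than in any HS3A8-low library. Of the other checkpoint genes, Ttk (0.45), Bub1 (0.27) and Bub3 (0.25) had positive log2 fold changes with edgeR adjusted p of 0.130, 0.185 and 0.176, Ttk being called with the block. Mad2l1 was at 151, 165 and 163 CPM in HS3A8-high and at 111, 135 and 199 CPM in HS3A8-low, so that HS3A8-low replicate 3 was the highest of the 6 (log2 fold change 0.08, edgeR adjusted p = 0.864). Pttg1, which encodes securin, had a log2 fold change of 0.01 (edgeR adjusted p = 0.978), while Espl1, which encodes the separase that securin holds inactive, had one of 0.46 (edgeR adjusted p = 0.353), with HS3A8-high replicate 1 at 185 CPM and replicates 2 and 3 at 118 and 103 CPM.

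The centromere and kinetochore list (7 genes) had no call with or without the block, 1 gene with an unadjusted p under 0.05 and the lowest median log2 fold change of the 7 lists, at 0.25. Its genes were higher in HS3A8-high in all 7 cases in pairs 1 and 2, with medians of 0.45 and 0.43, and in 3 of 7 in pair 3, with a median of -0.04. Cenpa, the centromeric histone, was at 308, 388 and 337 CPM in HS3A8-high and at 241, 298 and 356 CPM in HS3A8-low (log2 fold change 0.18, edgeR adjusted p = 0.573). Cenpe, a kinetochore motor, was the one whose fractions did not overlap, at 75.6, 60.0 and 57.2 CPM in HS3A8-high against 43.6, 49.7 and 40 CPM in HS3A8-low (log2 fold change 0.51 ± 0.15 SE, edgeR adjusted p = 0.123). Whether this list differs from the others was not tested.

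Of the kinesins (8 genes), motors that slide, bundle or shorten spindle microtubules, 3 were called without the block and 5 with it. Kif18b, which trims the plus ends of astral microtubules, was at 123, 105 and 110 CPM in HS3A8-high and at 77.4, 70.0 and 70.3 CPM in HS3A8-low (log2 fold change 0.61 ± 0.10 SE, edgeR adjusted p = 0.0323). Kif2c, the centromeric microtubule depolymerase MCAK, was at 99.3, 105 and 101 CPM in HS3A8-high and at 63.2, 73.1 and 66.2 CPM in HS3A8-low (log2 fold change 0.56 ± 0.09 SE, edgeR adjusted p = 0.0287). These fractions were separated in every replicate pair, with log2 CPM differences of 0.51 to 0.66 for both genes. Kif22, a chromokinesin, was at 207, 230 and 221 CPM in HS3A8-high and at 150, 152 and 167 CPM in HS3A8-low (log2 fold change 0.46 ± 0.08 SE, edgeR adjusted p = 0.0346). Kif11, the motor that drives the poles apart, was at 258, 215 and 197 CPM in HS3A8-high and 167, 149 and 168 CPM in HS3A8-low, and was called with the block only. Kif23, the midzone kinesin of the centralspindlin complex, did not separate, with HS3A8-low replicate 3 at 68.9 CPM above the 49.5 to 61.0 CPM of HS3A8-high (log2 fold change 0.07, edgeR adjusted p = 0.895).

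Among spindle, midzone and cytokinesis genes (9 genes), 2 were called without the block and 6 with it. Hmmr, a spindle assembly protein that binds hyaluronan outside the cell (chr11:40701395-40733422), was at 155, 151 and 141 CPM in HS3A8-high and at 108, 96.3 and 107 CPM in HS3A8-low (log2 fold change 0.49 ± 0.09 SE, edgeR adjusted p = 0.0363). Ckap2l, a spindle protein (chr2:129268210-129297212), was at 133, 122 and 132 CPM in HS3A8-high and at 90.6, 99.1 and 86.5 CPM in HS3A8-low (log2 fold change 0.46 ± 0.09 SE, edgeR adjusted p = 0.0451). Its relative Ckap2 was at 50.7, 55.7 and 54.8 CPM in HS3A8-high and at 44.9, 51.0 and 55.6 CPM in HS3A8-low, and the fractions overlapped (log2 fold change 0.06, edgeR adjusted p = 0.804). Prc1, the microtubule bundler of the midzone, was at 188, 177 and 190 CPM in HS3A8-high and at 127, 117 and 165 CPM in HS3A8-low and was called with the block. Racgap1, Ect2 and Dlgap5 were also called with the block, with log2 fold changes of 0.34 to 0.42 without it.

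Condensin, topoisomerase and chromosome surface genes (7 genes) were higher in HS3A8-high in all 3 pairs in 7 of 7 cases, and 2 were called without the block and 6 with it. Ncapg (chr5:45669919-45700546) and Ncaph, subunits of condensin I, which compacts chromosomes, stood at 119, 128 and 123 CPM and at 153, 148 and 156 CPM in HS3A8-high. In HS3A8-low they stood at 80.3, 88.8 and 92.1 CPM and at 110, 113 and 106 CPM. The log2 fold changes were 0.48 ± 0.09 (SE, edgeR adjusted p = 0.0363) and 0.45 ± 0.08 (SE, edgeR adjusted p = 0.0312). Smc4, a core subunit shared by both condensins, changed least of the 7, with a log2 fold change of 0.18 ± 0.07 (SE, edgeR adjusted p = 0.255). Smc2 had a log2 fold change of 0.36 and was called with the block (edgeR adjusted p = 0.0267). Top2a, the topoisomerase that untangles sister DNA, was at 430, 366 and 378 CPM in HS3A8-high and at 298, 265 and 312 CPM in HS3A8-low and was called with the block only. Mki67, the proliferation marker Ki-67, was at 249, 157 and 159 CPM in HS3A8-high and at 172, 129 and 130 CPM in HS3A8-low, so that replicate 1 was the highest in both fractions and the groups overlapped (log2 fold change 0.36 ± 0.22 SE, edgeR adjusted p = 0.418). Its log2 CPM difference was positive in all 3 pairs, and with the block it was called (edgeR adjusted p = 0.0466, in a range of 0.000314 to 0.828 over all alternatives run).

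**Figure D3:**
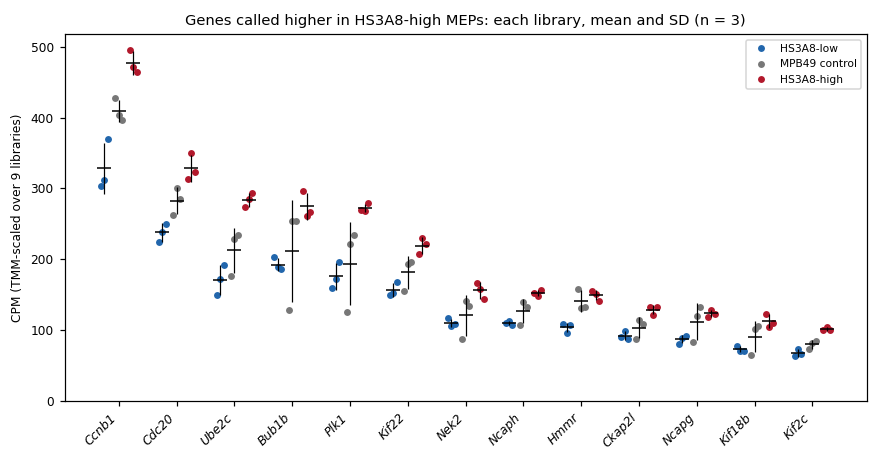
Level in CPM of the 13 genes called higher in HS3A8-high, in each HS3A8-low, MPB49 control and HS3A8-high library, with horizontal bars at the mean and vertical bars for the SD (n = 3). The red HS3A8-high points lie above the blue HS3A8-low points for every gene, and the grey control points lie mostly between them, with low single points for Plk1 and Bub1b from control replicate 1.

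The comparisons with the MPB49 control asked where MEPs sorted without regard to HS3A8 lie. They share the control libraries. Against the control, 45 of the 56 genes had a positive log2 fold change in HS3A8-high (median 0.23) and 53 a negative one in HS3A8-low (median -0.20). edgeR called 0 of the 56 genes in either comparison, where it called 0.0174% of all genes tested between HS3A8-high and control and 0% between HS3A8-low and control, and the smallest adjusted p among the 56 was 0.733 and 0.787. At an unadjusted p under 0.05, 3 genes (5.36%) were higher in HS3A8-high than in control, against 0.697% of all genes, and 1 (1.79%) was lower in HS3A8-low, against 0.429%. DESeq2 called 0 in both comparisons, and limma-voom with quality weights called 0 in HS3A8-high and 6 lower in HS3A8-low, where it called 0.168% of all genes lower. The control mean lay between the means of the fractions in 43 genes, and the mean of control replicates 2 and 3 in 51. The fractions were the top and the bottom of HS3A8 binding, and the mock-sorted control held both. A control level between them is thus largely set by the design wherever the fractions differ.

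The 5 genes with the smallest p between HS3A8-high and control were Kif2c, Ube2c, Racgap1, Wee1 and Ckap2l. Kif2c was at 72.9, 82.1 and 83.7 CPM in the control, below every HS3A8-high library (log2 fold change 0.36 ± 0.14 SE, edgeR adjusted p = 0.733). Ube2c had a log2 fold change of 0.43 ± 0.16 (SE) and Racgap1, part of centralspindlin, one of 0.36 ± 0.15 (SE). These 3 genes are the ones with an unadjusted p under 0.05, and none passed after adjustment. Wee1 was at 70.0, 60.8 and 59.1 CPM in HS3A8-high, 57.3, 51.1 and 47.7 CPM in HS3A8-low and 34.9, 52.8 and 53.6 CPM in the control, which put control replicate 1 below all others. Between HS3A8-low and control the 5 genes were Hmmr, Cdk1, Ccnb1, Anln and Aurka. Hmmr was at 158, 131 and 133 CPM in the control, above every HS3A8-low library (log2 fold change -0.44 ± 0.15 SE, edgeR adjusted p = 0.787). Anln, which encodes the contractile ring protein anillin, was at 101, 93.2 and 106 CPM in the control and 77.1, 67.0 and 91.6 CPM in HS3A8-low, and HS3A8-high lay at 105, 90.0 and 107 CPM, overlapping the control.

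Control replicate 1 differed from control replicates 2 and 3 in both directions. It was the lowest control in 35 of the 56 genes and the highest in 16, and it exceeded the mean of the others by more than 2-fold in 4 genes: Cks2 (2.62-fold), Mad2l1 (2.44-fold), Cenpa (2.35-fold) and Spc25 (2.07-fold). Without it, the median log2 fold change was 0.13 between HS3A8-high and control and -0.28 between HS3A8-low and control, 8 and 22 of the 56 genes had an unadjusted p under 0.05, against 5.43% and 9.67% of all genes, and 0 were called by edgeR. The deviation of a gene in a library from the mean of the other replicates of its group moved with the length of its principal transcript. Over the 56 genes, Spearman's rho was -0.49 in control replicate 1, 0.75 in HS3A8-high replicate 1, 0.66 in HS3A8-low replicate 1 and -0.53 in HS3A8-low replicate 3, and the same sign was seen over all 11179 genes with a length (-0.49, 0.47, 0.52 and -0.41). Genes share the library, and these are descriptions.

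**Figure D4:**
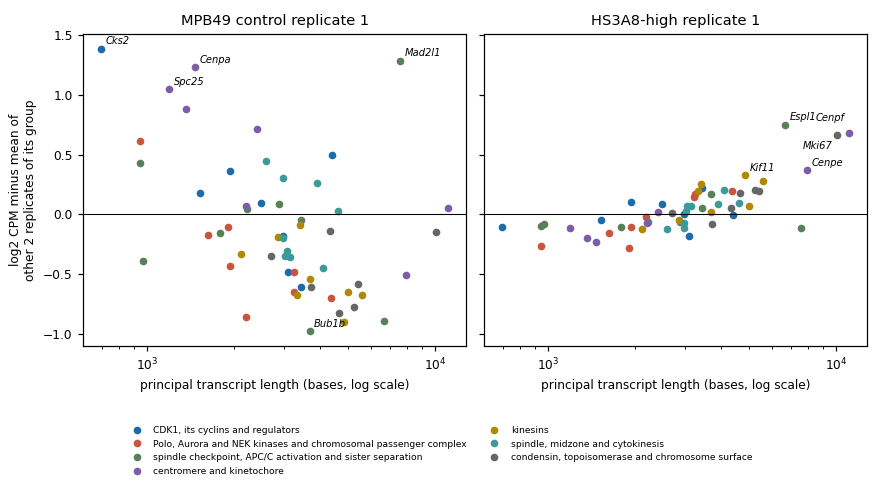
Log2 CPM of each of the 56 genes in MPB49 control replicate 1 (left) and HS3A8-high replicate 1 (right) minus the mean of the other replicates of its group, against the length of the principal transcript in bases on a log scale, coloured by role. Short transcripts such as Cks2 and Cenpa lie high in control replicate 1 (rho -0.49), and long ones such as Espl1 and Cenpf lie high in HS3A8-high replicate 1 (rho 0.75). Mad2l1, with a long principal transcript of 7557 bases, also lies high in control replicate 1.

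The genes whose pairs disagreed had a shorter median transcript length, with wide overlap. The 11 genes with a fold change above 0 that were not higher in HS3A8-high in every pair were Cks2, Birc5, Mad2l1, Pttg1, Cenpa, Ndc80, Spc24, Spc25, Kif23, Nusap1 and Ckap2. All 11 were lower in HS3A8-high in pair 3, and their principal transcripts had a median of 1466 bases against 3281 bases for the 44 genes higher in all 3 pairs. The lengths overlapped, at 692 to 7557 bases for the 11 genes and 967 to 11130 bases for the 44. The part of length in the disagreement of the pairs was not tested. Overlapping and copied genes are a further limit: 17 of the 56 genes share exon bases with another gene and 7 of them over 10% (Ccna2, Cdc25c, Ube2c, Kif20a, Kif4, Prc1 and Ncapg), 6 of the 13 called genes share none, and Ccnb1, Ccnb2, Kif22 and Kif4 have a named pseudogene that could take reads.

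Neighbouring parts of the cell cycle were described beside the 56 genes. Of 50 other mitotic genes, 44 had a positive log2 fold change in HS3A8-high against HS3A8-low, with a median of 0.32, and 3 were called higher (Kpna2, Tubb4b and Tuba1c). With the block 11 were called higher and 1 lower, the latter being Pimreg. Of 17 APC/C subunits and inhibitors, 13 were positive, with a median of 0.08 and 0 calls (edgeR), and 2 (Anapc1 and Cdc27) were called with the block. Of 40 DNA replication genes, 29 were positive, with a median of 0.07 and 0 calls (edgeR), and 1 (Rrm1, the large subunit of ribonucleotide reductase) was called with the block. Over all genes tested, 46.6% had a positive log2 fold change. Of them 0.611% were called higher without the block and 3.32% with it. At such shares lists of 17 or 40 genes hold few calls or none, so 0 calls do not set them apart.

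The summed level of the 56 genes divided by that of the 40 DNA replication genes was 0.828, 0.805 and 0.759 for HS3A8-high libraries and 0.642, 0.637 and 0.704 for HS3A8-low ones. The fractions did not overlap on this ratio. The control values were 0.895, 0.744 and 0.733, with control replicate 1 above all HS3A8-high libraries. No test was made of this ratio. Among 14 transcription regulators of mitotic genes, 9 were positive with a median of 0.03. E2f4, a partner of the MuvB core in quiescent cells, was called higher, where 0.611% of all genes tested were. It was at 626, 647 and 637 CPM in HS3A8-high against 460, 517 and 477 CPM in HS3A8-low (log2 fold change 0.37 ± 0.07 SE, edgeR adjusted p = 0.0371). Foxm1, the forkhead activator of G2/M transcription, was at 72.9, 65.6 and 69.4 CPM in HS3A8-high and at 52.6, 44.2 and 50.8 CPM in HS3A8-low, and was called with the block only (log2 fold change 0.47 ± 0.11 SE and edgeR adjusted p = 0.0717 without it).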

How the data were processed

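Bulk RNA-seq libraries of HS3A8-high, HS3A8-low and MPB49 control MEPs (n = 3 each) were sequenced by the authors from low-input RNA and mapped to the mm10 transcriptome with STAR. The submitters' processing notes name STAR 2.5 and HTSeq 0.6.1. The authors deposited raw counts per gene, without normalization, in 1 column per library, and no replicates were pooled. Whether counting used strand is not given in the sources used here. Of 35275 identifiers, 34490 matched GENCODE mouse release M21 on GRCm38.

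Counts were analysed in R 4.3.3 with the quasi-likelihood test of edgeR 4.0.16 (TMM, filterByExpr, Benjamini-Hochberg adjustment over all genes tested, adjusted p under 0.05), fitted on the 2 groups compared. The authors' own tool, DESeq2 (here 1.42.0), limma 3.58.1 voom with quality weights, other scalings and filters, a replicate block, GC and length splines (5 degrees of freedom) and leaving out each library were alternatives. CPM of single libraries are TMM-scaled over 9 libraries.

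Members and gene lists were chosen with earlier results of these data known. Named genes are those called between the fractions, the gene of highest level and of largest change in each role list, the 5 of smallest p in each comparison with the control, and Ube2c, Plk1 and Kif18b. Genes given beyond these, such as Aurkb, Birc5, Espl1 and Mki67, were chosen after their values were seen. Pairing was checked over 12108 genes by correlating how libraries deviated from their group's mean. Across the 2 fractions, r was 0.325 to 0.509 for equal replicate numbers and -0.469 to 0.123 for unequal ones, so the numbers were taken to pair the fractions. For the sorted fractions the study states 3 individual mice, without saying if both fractions were taken from each of them. For the control no such statement was found, and where its samples are not separate animals the p-values measure the spread between these samples only.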

Additional observations from a re-analysis of the deposited data

How the results depend on the processing

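Between HS3A8-high and HS3A8-low, 13 of the 56 genes were called, and the number moved with the test: 27 with DESeq2 (26 higher and 1 lower), 33 with limma-voom (32 higher and 1 lower), 3 with all 9 libraries in 1 fit, 30 with the replicate block and 27 with the replicate block and the GC and length correction. The share of all genes called higher moved too, from 0.611% to 1.68%, 3.62%, 0.0661%, 3.32% and 6.22% in the same order. With DESeq2 size factors, no count filter and a mean count of at least 10, the number of the 56 genes called was 13, 14 and 12. In the same order, 0.729%, 0.337% and 0.583% of all genes were called higher. With each library left out, 0 to 9 of the 56 genes were called, where 0% to 0.247% of all genes were called higher. Without replicate 3 of both fractions, chosen after seeing the data, 9 were called, where 0.277% of all genes were called higher. With the block added, 51 were called (50 higher and 1 lower), where 14% of all genes were called higher and 16% lower. The median log2 fold change was 0.33 to 0.44 with each library left out, and 0.44 without replicate 3 of both fractions with or without the block. The replicate block called 17 in place of 4 genes of the 4 other lists.

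Against the control, limma-voom gave a median of 0.11 for HS3A8-high and 6 calls for HS3A8-low. Control replicates correlated with the same-numbered fraction libraries by -0.345 to 0.0312, so that the block pairs nothing there, and it made 0 calls.

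Genes near 0 changed sign in some settings. Pttg1 was -0.0091 with limma-voom and -0.0076 with the block and the GC and length correction. With each library left out, Pttg1 ranged from -0.039 to 0.058, Mad2l1 from -0.066 to 0.35, Cenpf from -0.017 to 0.49 and Kif23 from -0.032 to 0.34. The cause was not tested. The lowest level of any of the 56 genes was 18.8 CPM, so counts of 0 limit none of them. With 3 libraries per group, the spread between replicates sets the precision of single genes, and the number of calls depended on single libraries.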
